A study of Mus musculus with 9 samples.

Results

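The comparison is of CD8+ T cells from mice given an agonist antibody to CD27 together with antibodies to PD-1 and PD-L1 (the combination) with cells from mice given the CD27 antibody without the other antibodies (anti-CD27). The question is what keeping PD-1 from PD-L1 adds to CD27 agonism. The arrays were chosen by their sample titles and number 6 of the 9 in the series, 3 for each group, with 1 mouse per array. Per the labels' protocols, 2000000 Thy1.1+ CD8+ T cells of pmel1 mice, whose transgenic receptor recognises a peptide of the pigment cell protein gp100, were put into naive congenic recipients. Every recipient was then injected intravenously with 100 µg of human gp100 peptide and 400 µg of antibody in all. In the combination this was 200 µg of the CD27 agonist (clone AT124) with 100 µg of anti-PD-1 (clone RMP1-14) and 100 µg of anti-PD-L1 (clone 10F.9G2). In anti-CD27 it was 200 µg of AT124 with 200 µg of isotype control antibody. Spleen CD8+ cells were taken from each mouse on day 4 after peptide, and the transferred cells were sorted as Thy1.1+ CD8+ to over 99% purity. The peptide and the transgenic receptor are common to both groups, so that the differences are between antibody treatments of stimulated cells, and mice with peptide and isotype control alone are not analysed here. The host's own cells, which can also carry PD-L1, were not removed before treatment, and the sources used here do not give strain, sex or age of the mice.

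CD27 is a receptor of the TNF receptor family on T cells that, when engaged by its ligand CD70 or by an agonist antibody, signals through TRAF adaptors to NF-kB and favours survival and expansion of stimulated CD8+ T cells. PD-1 is induced by antigen and, when bound by PD-L1, recruits phosphatases that dampen signals from the T cell receptor and CD28. Antibodies to PD-1 and PD-L1 keep the pair apart.

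More genes were higher than lower in the combination. Of 30705 genes tested with limma on the log2 levels of the 6 arrays, 1226 were called higher (3.99%) and 428 lower (1.39%) at an adjusted p under 0.05 over all genes, while the median difference over all genes was -0.0032. The called rises had a median size of 0.36 on the log2 scale and the called falls 0.31, and 64 rises and 11 falls were at least 2-fold. In each called gene the 3 arrays of one group lay wholly above or below those of the other. As this held for every call, it sets no called gene apart and adds no support to a call. The share of all genes without overlap is not given here. A call is named consistent here when it also held, in the same direction, in 8 further fits, which left out each of the 6 arrays in turn, quantile normalized the arrays, or added the 3 anti-PD-1/L1 arrays to the estimate of the spread. The anti-PD-1/L1 arrays stood apart in their controls. Their positive control rows had a mean of 5.75 (6.81 in the combination, 6.70 in anti-CD27) and their background control rows 4.06 (3.25 and 3.27). Consistent calls numbered 124 higher (0.404% of the genes tested) and 34 lower (0.111%), with median sizes of 0.64 and 0.51. The number of calls rested on single arrays. It was lowest without anti-CD27 replicate 2, at 278 higher and 82 lower, and highest without combination replicate 3, at 1392 and 566. In bulk RNA, fewer cells that express a gene and less of its RNA per cell cannot be told apart.

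**Figure D1:**
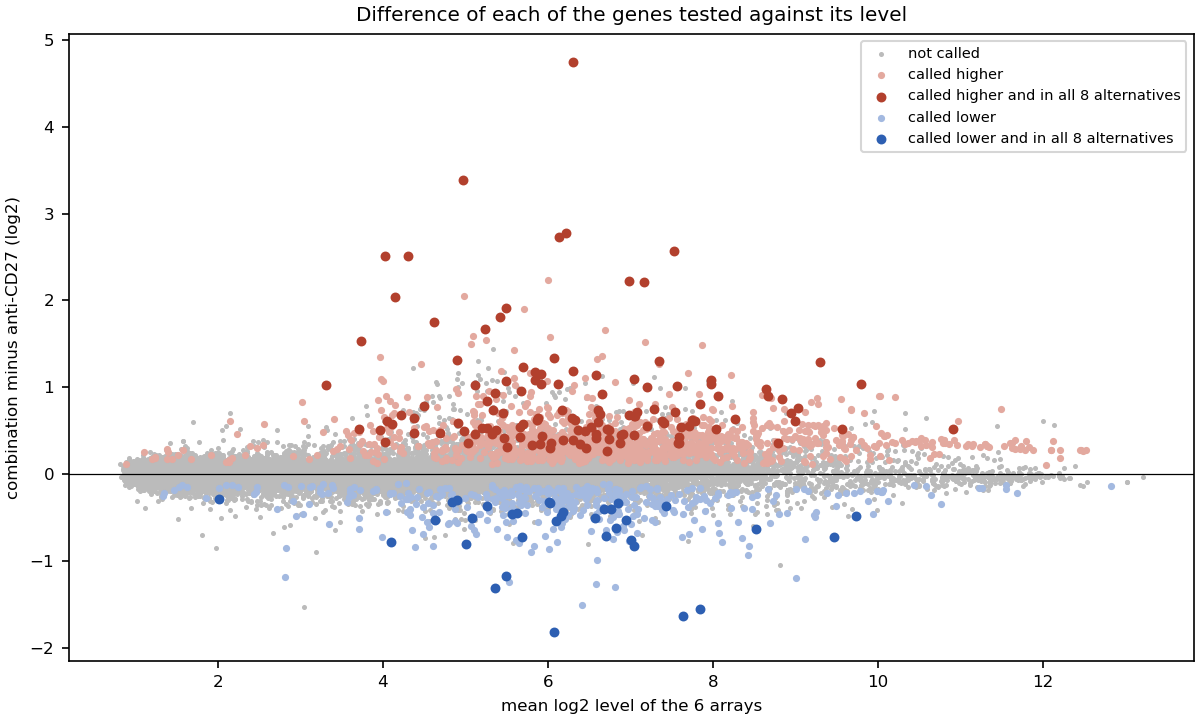
Combination minus anti-CD27 (log2) for each of the 30705 genes tested, against the mean log2 level of the 6 arrays. Dark points are the 124 rises and 34 falls that were also called in all 8 further fits, pale points the other called genes and grey points genes not called, and the larger differences lie mostly above 0.

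The sorted cells had the markers of their label. Cd8a, a chain of the CD8 coreceptor, had log2 levels of 10.53 ± 0.07 (mean ± SD of 3 arrays) in the combination and 10.77 ± 0.02 in anti-CD27 (adjusted p = 0.0354, lost without any 1 array other than combination replicate 3). Cd3e was at 10.95 ± 0.08 and 11.06 ± 0.03, and Thy1 at 8.39 ± 0.02 and 8.44 ± 0.07, and neither passed. Of 63 measured markers in 10 lists of other cell types, 35 were at or below the mean of the array's background controls (log2 3.25 in the combination and 3.27 in anti-CD27) in both groups, 1 was called higher (Xbp1) and 2 lower (Cd79b, Zbtb7b). Defining markers at or below background in both groups included Cd79a of B cells, Jchain of plasma cells, Ncr1 of NK cells, Csf1r of macrophages, S100a8 of neutrophils and Ppbp of platelets. Others of the same lists were above it in both groups, among them Cd79b (5.40 in the combination and 5.64 in anti-CD27), Pax5 and Blk of B cells, Cd68 (5.90 in the combination and 5.55 in anti-CD27), C1qa, C1qb and C1qc of macrophages, H2-Ab1 (4.99 in the combination and 4.61 in anti-CD27) of dendritic cells, Klrb1c of NK cells, and Pf4, Gp9 and Itga2b of platelets. On the log2 scale, the summed level of the 11 monocyte and macrophage markers was 7.16 to 7.22 in the combination and 7.03 to 7.08 in anti-CD27, that of the 5 NK cell markers 4.92 to 4.94 and 4.83 to 4.89, and that of the 8 B cell markers 6.55 to 6.60 and 6.68 to 6.71. That of the 6 plasma cell markers, which include Xbp1, was 7.61 to 7.75 and 7.27 to 7.43. The 10 dendritic cell markers summed to 6.81 to 6.99 and 6.68 to 6.79, and the 3 CD4+ T cell markers to 5.86 to 5.94 and 6.02 to 6.07. The 11 markers of the sorted population itself summed to 13.35 to 13.47 and 13.51 to 13.54, with Cd3d and Cd5 called lower beside Cd8a. The groups did not overlap in any of these 7 sums. They overlapped in the sums of the neutrophil (5.97 to 6.11 and 6.01 to 6.09) and erythroid markers (5.76 to 5.88 and 5.80 to 5.91). The sums of the platelet (6.34 to 6.48 and 6.44 to 6.50) and gamma delta T cell markers (5.84 to 5.94 and 5.91 to 5.96) overlapped too. The part of other cell types in the results was not tested. The mean of the positive control rows was 6.81 ± 0.04 in the combination and 6.70 ± 0.02 in anti-CD27, and the exact permutation p was 0.1, which is the lowest value possible for 3 arrays in each group. The negative control rows moved the other way, at 2.78 ± 0.07 and 2.92 ± 0.06 (exact permutation p = 0.1), as did the median of the transcript rows, at 2.73 and 2.75, while the SD over genes was 2.25 and 2.22 (p = 0.1 for both, by the same test). The part of these shifts in the calls cannot be told apart from the treatment.

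Of the consistent calls, 17 rises and 8 falls were of genes already known from earlier results of these data, and among them were the largest rise, 4.75 ± 0.27 in the granule protease gene Gzmb, and the largest fall, -1.82 ± 0.09 in the sialyltransferase gene St6gal1. The 14 largest of the remaining rises included surface receptors, a channel, membrane proteins, enzymes and replication genes. Gpr15, a G protein-coupled receptor that guides T cells to the large intestine, was at log2 6.24, 6.57 and 6.16 in combination replicates 1, 2 and 3 and at 4.52, 4.63 and 4.40 in anti-CD27. It rose 3.5-fold (1.81 ± 0.12, log2 difference ± SE, adjusted p = 0.00481), and the lowest combination array stood well above the highest anti-CD27 array. Kcnk5, a potassium channel of the tandem-pore family, was at 5.98, 6.08 and 6.19 against 4.36, 4.39 and 4.48 and rose 3.19-fold (1.67 ± 0.06, adjusted p = 0.00265). Klrc3, a lectin-type receptor of the NKG2 family, was at 4.66, 4.64 and 4.21 against 3.01, 2.89 and 3.01. All its anti-CD27 arrays were below the mean of the background controls, so that its rise is given as a lower limit of 1.23 on the log2 scale (adjusted p = 0.00699). The third combination array was the lowest of its group. Its sequence is close to those of Klrc1 and Klrc2, which its probes may also read. Lilr4b, an immunoglobulin-type receptor of the LILR group whose sequence is close to that of Lilrb4a, was at 5.43, 5.72 and 5.54 against 4.08, 4.32 and 4.32 (1.32 ± 0.10, adjusted p = 0.00621). The sources used here do not state whether the probes of its row separate it from Lilrb4a.

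Further rises of about 2-fold came from genes with varied roles. Crybg1, a crystallin-domain protein that binds actin, was at 6.85, 7.02 and 6.82 against 5.70, 5.68 and 5.75 (1.19 ± 0.06). Themis2, a relative of the T cell signalling protein THEMIS that is best known from B cells, was at 6.45, 6.45 and 6.40 against 5.06, 5.37 and 5.34 (1.18 ± 0.09). Emp1, a tetraspan membrane protein, rose by 1.16 ± 0.08, Cldnd1, a claudin-domain protein, by 1.04 ± 0.06, Chst11, which sulfates chondroitin chains, by 1.04 ± 0.05, and Smpdl3b, a lipid-cleaving ectoenzyme, by 1.04 ± 0.09. Chsy1, which builds the chondroitin chain, also rose, by 0.77 ± 0.06. It was picked after its values were seen. The adjusted p of these 7 genes was at most 0.00705, and for each of them, as for every gene called higher, the 3 combination arrays were above the 3 anti-CD27 arrays.

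The 14 largest of the remaining consistent falls were smaller than these rises. Slc6a19, a transporter of neutral amino acids, was at 4.62, 4.67 and 4.52 in the combination and 5.39, 5.43 and 5.40 in anti-CD27, and fell by 0.80 ± 0.04 (adjusted p = 0.00416). Trat1, an adaptor that sits with the T cell receptor, was at 3.62, 3.76 and 3.76 against 4.53, 4.38 and 4.56 and fell by 0.78 ± 0.07. St8sia1, the sialyltransferase that makes ganglioside GD3, was at 6.67, 6.67 and 6.54 against 7.40, 7.35 and 7.41 and fell by 0.76 ± 0.05. In each of these genes the gap between the groups was several times the range within either. Malat1, an abundant nuclear long non-coding RNA, fell by 0.73 ± 0.06, from 9.92, 9.75 and 9.83 to 9.15, 9.15 and 9.02. Rgcc, a regulator of the cell cycle, fell by 0.71 ± 0.06, and H2-Oa, a chain of the class II chaperone H2-O, by 0.62 ± 0.04. Timp2, an inhibitor of metalloproteinases, fell by 0.54 ± 0.04, Ypel3 by 0.53 ± 0.04, the calpain protease Capn3 by 0.52 ± 0.04, and Tmie, known from mechanosensing hair cells, by 0.50 ± 0.04. Ikbke, a kinase of innate signalling, fell by 0.51 ± 0.04, the deubiquitinase Usp28 by 0.48 ± 0.03, Fbxo32, the ubiquitin ligase atrogin-1, by 0.46 ± 0.04, and Lats2, a kinase of the Hippo pathway, by 0.45 ± 0.04. The highest adjusted p of these 14 genes was 0.0081. The 3 combination values of Usp28 were equal within 0.0001, so that its SE of 0.03 draws on the spread in anti-CD27 and on limma's variance estimate over all genes. H2-Oa is also expressed by B cells, whose summed markers were lower in the combination too (given above), and their part in its fall was not tested.

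**Figure D2:**
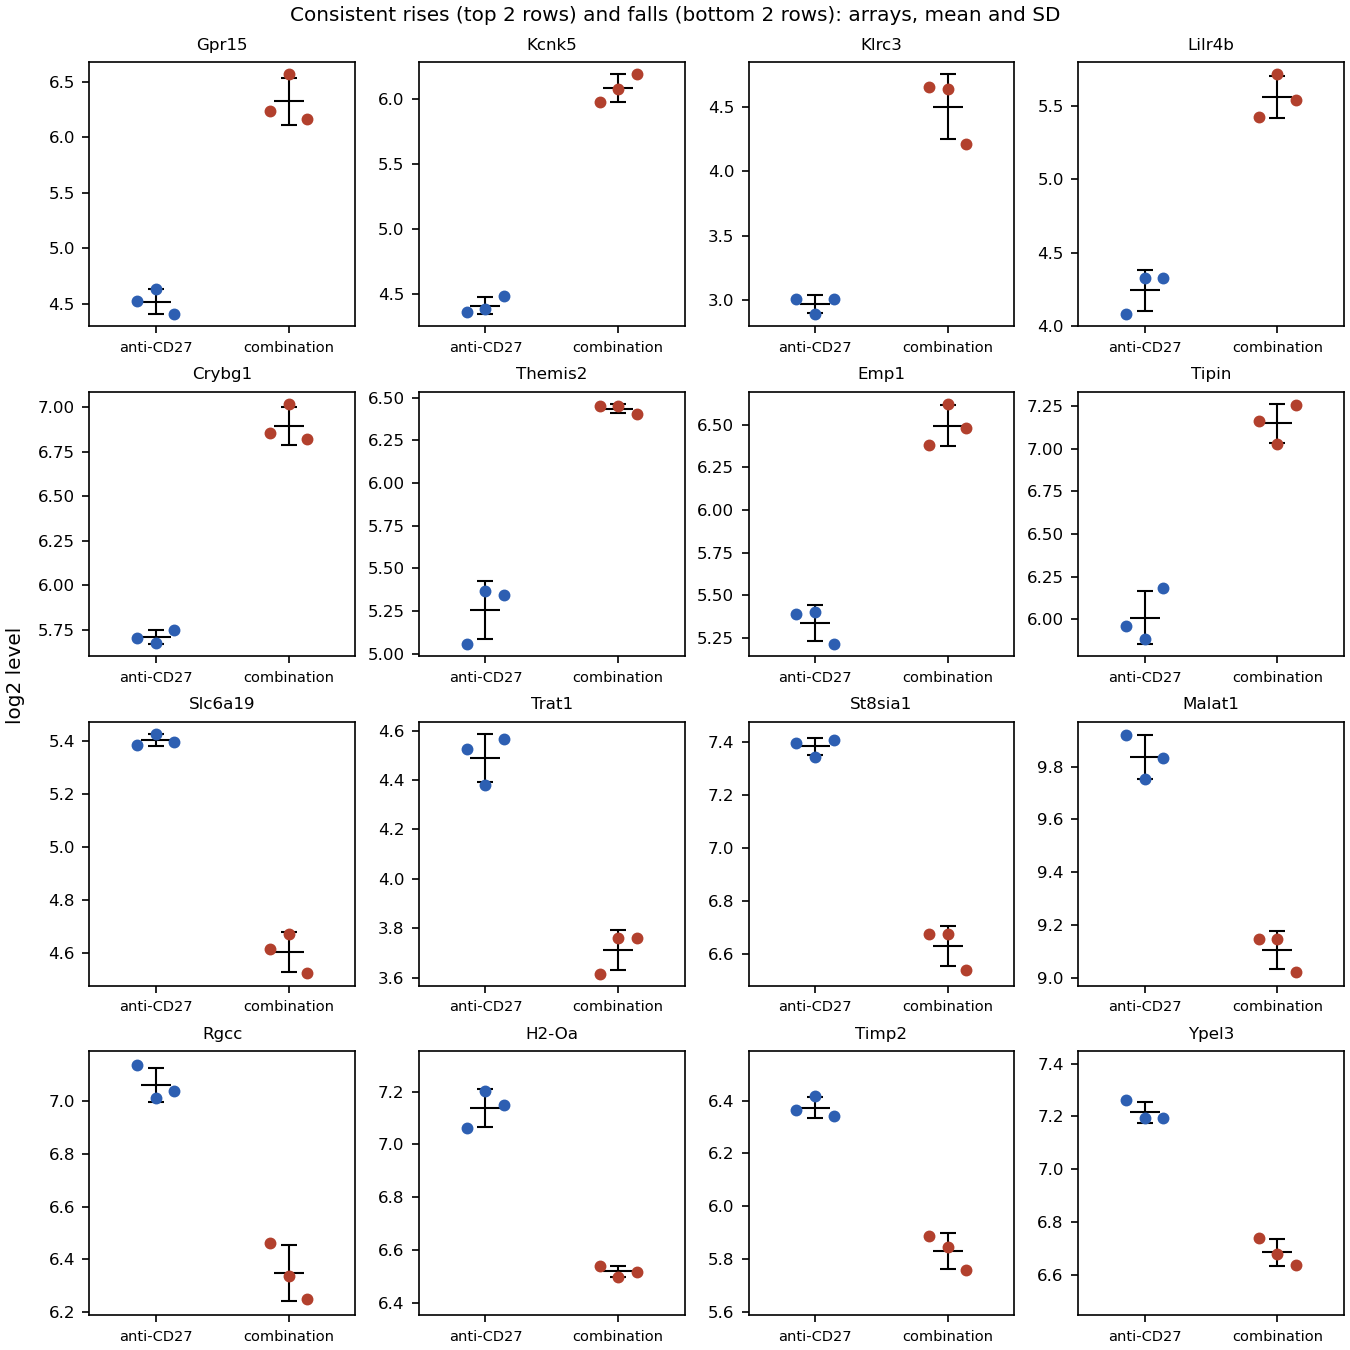
log2 level on each array for the first 8 of the 14 named consistent rises (top 2 rows) and of the 14 named falls (bottom 2 rows), with group means and SD bars (n = 3 mice). The groups do not overlap for any of the 16 genes, which was a condition of their choice, and each panel has its own axis.

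Genes that start and run DNA replication were 4 of these 14 rises. Others are given here from the remaining consistent rises, picked after their values were seen. Mcm6 and Mcm2, subunits of the replicative helicase, were at 8.48, 8.46 and 8.62 against 7.44, 7.40 and 7.45 (1.09 ± 0.05, adjusted p = 0.00413) and at 7.50, 7.52 and 7.75 against 6.57, 6.36 and 6.57 (1.09 ± 0.09). Tipin, which protects stalled forks, rose by 1.14 ± 0.10 and Prim1, the catalytic subunit of primase, by 1.07 ± 0.08. Cdc6, which loads the helicase, rose by 1.03 ± 0.07 and Mcm4 by 1.01 ± 0.06. Pcna, the sliding clamp of the polymerases, rose by 0.90 ± 0.06. A row named for its pseudogene Pcna-ps2 rose by 1.03 ± 0.08, and the signals of such near-identical copies may not be separated. Wdhd1 rose by 0.84 ± 0.07, Dtl, which targets proteins for destruction at replicating DNA, by 0.74 ± 0.04, the cyclin Ccne2 by 0.78 ± 0.05 and the phosphatase Cdc25a by 0.53 ± 0.04. In each of these 11 genes and the pseudogene's row, as in every gene called higher, every combination array was above every anti-CD27 array.

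Promoters of RefSeq (build GRCm38.p6) were searched for sites of the E2F type, since E2F factors bind upstream of many replication genes. The letters searched were TTTGGCGC, TTTCCCGC, TTTCGCGC and TTTGCCGC on both strands, in the 250 bases before each gene's start, and sites may overlap. Of 106 consistent rises with a promoter in the table, 8 held such a site (7.55%), as did 48 of all 771 called rises (6.23%), 5 of 278 called falls (1.8%) and 0 of 28 consistent falls. Among the 18263 tested genes with a promoter the share was 2.34%, and among all 27018 promoters 1.91%. A match is a description of the sequence and not evidence of binding. The promoters of Mcm6, Cdc6, Hells (a chromatin remodeller) and Ranbp1 (a regulator of nuclear transport) are printed as examples of the 8, 5′ to 3′ on the gene's strand, ending at the base before the start, with matches in capitals. Mcm6 held 3 matches, of which the first pair overlap, and the others held 1 each.

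Mcm6 (chr1:128359706-128359955, minus strand): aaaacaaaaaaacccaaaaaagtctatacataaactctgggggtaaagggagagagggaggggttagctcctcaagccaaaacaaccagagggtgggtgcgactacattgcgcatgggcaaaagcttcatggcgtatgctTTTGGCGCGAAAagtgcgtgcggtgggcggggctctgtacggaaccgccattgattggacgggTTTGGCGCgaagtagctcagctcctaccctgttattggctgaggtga
Cdc6 (chr11:98907901-98908150, plus strand): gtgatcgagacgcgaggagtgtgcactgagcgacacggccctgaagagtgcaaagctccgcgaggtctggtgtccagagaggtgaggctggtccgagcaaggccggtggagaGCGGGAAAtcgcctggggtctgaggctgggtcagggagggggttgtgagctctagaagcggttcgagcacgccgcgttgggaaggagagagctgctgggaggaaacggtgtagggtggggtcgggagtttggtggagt
Hells (chr19:38930740-38930989, plus strand): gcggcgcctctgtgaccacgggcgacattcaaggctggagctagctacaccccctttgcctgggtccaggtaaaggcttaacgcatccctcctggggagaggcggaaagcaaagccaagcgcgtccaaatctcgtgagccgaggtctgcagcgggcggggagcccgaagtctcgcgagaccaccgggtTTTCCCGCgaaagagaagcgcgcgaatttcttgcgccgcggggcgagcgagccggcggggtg
Ranbp1 (chr16:18248695-18248944, minus strand): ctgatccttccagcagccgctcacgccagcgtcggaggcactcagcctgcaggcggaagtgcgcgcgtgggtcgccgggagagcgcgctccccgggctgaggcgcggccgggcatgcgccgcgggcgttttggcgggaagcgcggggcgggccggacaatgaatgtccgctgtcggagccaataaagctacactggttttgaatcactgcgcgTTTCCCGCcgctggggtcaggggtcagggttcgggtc

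Among the consistent rises, other motifs searched in the same windows and on both strands stood closer to the share of all tested genes. The E-box CACGTG was in 9 of the 106 consistent rises (8.49%) against 6.69% of the tested genes, the T-box letters AGGTGTGA in 1 (0.943%) against 1.07%, and the ATF4 composite letters TGATGCAA in 1 (0.943%) against 0.767%. Over all 771 called rises the E-box was in 74 (9.6%). It was also in 20 of 278 called falls (7.19%) and 3 of 28 consistent falls (10.7%).

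Over 35 function lists 131 of 930 measured genes were called higher (14.1%) and 34 lower (3.66%), against 3.99% and 1.39% of all genes. Calls were also more frequent among genes of higher level. In a fit of the 3559 genes above the 95th percentile of the background control rows in either group, 1042 were called higher and 277 lower. The part of expression level in the shares of the lists was not tested. The counts of each list below stand beside the same 3.99% higher and 1.39% lower of all genes. Lists of genes that package and house new DNA had the most rises. Of 26 measured histone chaperones and nuclear lamina proteins, 14 were called higher (53.8%, against 3.99% of all genes), none lower, and 12 did not pass, with a median difference of 0.34 against -0.0032 over all genes. Hells, the remodeller whose promoter is printed above, was at 6.19, 6.11 and 6.18 in the combination and 5.29, 5.01 and 5.29 in anti-CD27 (0.96 ± 0.09, adjusted p = 0.00766), and anti-CD27 replicate 2 was the lowest array. Nasp, a chaperone of histone H3, was at 5.66, 5.56 and 5.67 against 5.13, 5.09 and 5.13 (0.51 ± 0.04). Both calls were consistent. Uhrf1, which maintains DNA methylation through replication, rose by 1.07 ± 0.18 and Lmnb1, lamin B1, by 0.92 ± 0.16, with combination replicate 3 the highest array for each. Both calls were lost without any 1 array other than combination replicate 3 (adjusted p up to 0.138). Asf1b, a chaperone of newly made histones, had a difference of 1.05 ± 0.26 that did not pass (adjusted p = 0.0985). The number called was 4 without anti-CD27 replicate 1 or 2, 5 and 6 without combination replicate 1 or 2, 8 without anti-CD27 replicate 3, and 15 without combination replicate 3.

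Nuclear pore and transport genes gave 12 calls higher among 31 measured (38.7%), none lower, with 30 of 31 differences above 0 and a median of 0.32. Ranbp1, which works with the GTPase Ran, was at 6.95, 6.94 and 7.02 against 6.41, 6.48 and 6.48 and was the only consistent member (0.51 ± 0.04, adjusted p = 0.00485). The structural pore proteins Ndc1, Nup93 and Nup205 rose by 0.72 ± 0.13, 0.68 ± 0.08 and 0.61 ± 0.12, and Cse1l, which returns importin alpha to the cytoplasm, by 0.63 ± 0.09. The importin Kpna2 had a difference of 0.69 ± 0.46 that did not pass (adjusted p = 0.547). Without anti-CD27 replicate 1 the count fell to 1, without replicate 2 to 2, without anti-CD27 replicate 3 or combination replicate 1 to 4 and without combination replicate 2 to 7, and it was 12 without combination replicate 3.

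Genes of the mitotic apparatus had differences of like size but few calls. Among 29 centromere and kinetochore proteins, 4 were called higher (13.8%, against 3.99% of all genes) and 25 did not pass. Even so, 28 differences were above 0 and the median was 0.32. Cenpm was at 6.52, 6.42 and 6.84 against 5.83, 5.87 and 5.89 (0.73 ± 0.11, adjusted p = 0.027), and Dsn1, Mis12 and Nsl1, parts of one kinetochore complex, rose by 0.33 ± 0.04, 0.37 ± 0.06 and 0.68 ± 0.12. Cenpe, a motor of the kinetochore, had a difference of 1.05 ± 0.39 that did not pass (adjusted p = 0.259). Its arrays were at 5.38, 5.40 and 6.53 in the combination and 5.07, 4.26 and 4.85 in anti-CD27, with combination replicate 3 more than 1 log2 unit above the other arrays. Of 19 centrosome genes 3 were called higher (Haus6, Nedd1 and Sass6, each by 0.42 to 0.44), of 20 tubulins and their folding factors 3 (Stmn1, a microtubule destabiliser, by 0.88 ± 0.14, Tbcb by 0.28 ± 0.04 and Tubgcp3 by 0.16 ± 0.03). Of 23 kinesin motors 1 was called higher and 1 lower (4.35% each, against 3.99% and 1.39% of all genes). The rise was in Kif2a (0.34 ± 0.06), and the fall in Kif1b, a motor of organelle transport (-0.29 ± 0.04, its 3 combination values equal within 0.0001). The list medians were 0.37 for the centrosome, 0.34 for kinesins and 0.22 for tubulins. The largest kinesin difference, 1.17 ± 0.28 in Kif15, did not pass (adjusted p = 0.0934). Each of the 11 calls higher in these 4 lists was lost without any 1 anti-CD27 array (adjusted p up to 0.153).

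Cell surface and contact genes moved one by one and in both directions. Among 12 SLAM receptors and adaptors, which pass signals between blood cells in contact, 4 were called higher and 1 lower. That is 33.3% and 8.33%, against 3.99% and 1.39% of all genes. Slamf7 was at 8.40, 8.44 and 8.26 in the combination and 7.51, 7.62 and 7.71 in anti-CD27 (0.75 ± 0.07, adjusted p = 0.00839, lost without anti-CD27 replicate 2 or combination replicate 1). Sh2d1a, the adaptor SAP, was at 7.20, 7.20 and 7.27 against 6.86, 6.88 and 6.89 (0.35 ± 0.03), and its call held whichever single array was left out. Cd48 and Slamf1 rose by 0.42 ± 0.07 and 0.33 ± 0.04, while Slamf6, which marks less differentiated CD8+ T cells, was at 9.36, 9.38 and 9.19 against 9.67, 9.62 and 9.75 and fell by 0.37 ± 0.06 (adjusted p = 0.0399). The calls of Cd48 and Slamf6 were lost without anti-CD27 replicate 1 or 2 or combination replicate 1 or 2 (adjusted p up to 0.137). That of Slamf6 was also lost without anti-CD27 replicate 3.

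Tetraspanins, which organise membrane proteins into patches, gave 4 calls lower and 1 higher among 16. Tspan32 was at 5.69, 5.48 and 5.58 in the combination and 6.73, 6.38 and 6.24 in anti-CD27 (-0.86 ± 0.14), Cd81 at 4.23, 4.15 and 4.40 against 4.85, 4.84 and 4.75 (-0.55 ± 0.07), and Cd37 at 8.57, 8.57 and 8.57 against 9.08, 9.07 and 8.97 (-0.47 ± 0.04, adjusted p = 0.00621). Anti-CD27 replicate 1 stood apart for Tspan32, and the 3 combination values of Cd37 were equal within 0.0001. Cd37 and Cd81 are B cell genes as well, and the part of the lower summed B cell markers in their falls was not tested. Tspan14 fell by 0.27 ± 0.05. In the other direction Tspan2 rose by 0.98 ± 0.13, from 4.41, 4.41 and 4.37 to 5.49, 5.56 and 5.07. Of these calls that of Cd37 held without any 1 array, and those of Cd81, Tspan2 and Tspan32 were lost without any 1 anti-CD27 array or combination replicate 1 or 2 (with adjusted p values reaching 0.117). Over the list the median difference was -0.05 with the values as deposited, -0.03 after median centring and -0.07 after quantile normalization. Among 31 receptors with ITIM or ITAM signalling and their adaptors, 18 were at or below background in both groups, 3 were called higher and 1 lower. Lair1, an inhibitory collagen receptor, rose by 0.53 ± 0.06, Cd47 by 0.32 ± 0.04, and Hcst, the adaptor DAP10 of NKG2D, fell by 0.21 ± 0.04. Cd200r4 was called while below background in both groups. Of 23 Ly6 genes 1 was called higher and 1 lower (4.35% each, against 3.99% and 1.39% of all genes). The rise was in Ly6c2, a surface marker of effector and memory CD8+ T cells that is nearly identical to Ly6c1. It was at 11.91, 11.92 and 11.78 against 10.90, 11.22 and 11.24 (0.75 ± 0.10), and the fall was in Lypd6b (-0.33 ± 0.05). Of 30 semaphorins, plexins and ephrins 1 passed, Sema4b, which fell by 0.31 ± 0.02 (adjusted p = 0.00632) and held without any 1 array. None of the calls counted on the ITIM and ITAM list or the Ly6 list held without anti-CD27 replicate 2. Lilr4b, the LILR group receptor given above as a consistent rise (1.32 ± 0.10), was not counted on the ITIM and ITAM list.

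The actin skeleton gave 9 calls higher and none lower among 31 genes (29%, against 3.99% of all genes), with a median of 0.09. Its genes were of high level, with a median of 8.75 in the combination and 8.52 in anti-CD27. In the fit of the 3559 genes above the 95th percentile of the background control rows, 1042 were called higher. The part of level in the share of this list was not tested. Vcl, vinculin, which ties actin to adhesion sites, was at 4.52, 4.62 and 4.55 in the combination and 3.85, 3.80 and 4.00 in anti-CD27, and was the only consistent member (0.68 ± 0.06, adjusted p = 0.00766). Vim, the intermediate filament vimentin, was at 10.98, 11.01 and 11.01 against 10.60, 10.60 and 10.60 (0.39 ± 0.02), with equal values on the 3 anti-CD27 arrays. Myo1f, a short-tailed myosin, rose by 0.27 ± 0.03 and Actn4, an actin crosslinker, by 0.23 ± 0.04, and the rises of Actb, Pfn1, Ezr, Lcp1 and Myo1g were between 0.10 and 0.17. After quantile normalization 3 of the list were called higher and 1 lower, and with 1 array left out the number was 2 or 3, except without combination replicate 3, where it was 9. In the machinery that releases lytic granules, 4 of 27 genes rose and none fell, namely Vamp7 (0.53 ± 0.09), the synaptotagmin-like Sytl2 (0.34 ± 0.05) and Sytl3 (0.28 ± 0.04), and Lamp1, a membrane protein of granules and lysosomes (0.19 ± 0.02). These 4 calls (14.8% of the list, against 3.99% of all genes) were lost without anti-CD27 replicate 2.

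Among the 35 lists, that of channels and pumps had the most calls lower, 6 of 25 (24%, against 1.39% of all genes), with 3 higher. Beside Kcnk5, the calcium pumps Atp2b1 of the plasma membrane and Atp2a2 of the endoplasmic reticulum rose by 0.60 ± 0.11 and 0.44 ± 0.07. Orai2, a subunit of the store-operated calcium channel, was at 6.46, 6.47 and 6.51 in the combination and 6.86, 6.90 and 6.87 in anti-CD27, and its fall was consistent (-0.40 ± 0.03, adjusted p = 0.00471). Orai1 fell by 0.27 ± 0.05, Itpr2, a calcium release channel, by 0.53 ± 0.09, the potassium channel Kcna2 by 0.44 ± 0.05, Hvcn1, a proton channel, by 0.22 ± 0.03, and Atp1b1, a subunit of the sodium pump, by 0.64 ± 0.09. With 1 array left out the falls numbered 1 (without anti-CD27 replicate 2) to 3, and the rises 1 or 2. Among 26 receptors for lipid mediators and orphan receptors, 3 rose and 1 fell. Gpr55 was at 6.40, 6.39 and 6.31 against 5.92, 5.92 and 5.92 (0.45 ± 0.03, adjusted p = 0.00481) and held without any 1 array. Gpr25, a close relative of Gpr15, rose by 0.60 ± 0.08 and Gpr18 by 0.28 ± 0.04, while Gpr132 fell by 0.14 ± 0.03, and these 3 were lost without any 1 anti-CD27 array. Of 20 purinergic receptors and ectoenzymes 1 passed, Entpd5 (0.18 ± 0.03), which is 5% called higher, against 3.99% of all genes. Of 28 innate sensors 2 fell (7.14%, against 1.39%), the RNA sensor Tlr7 (-0.69 ± 0.12) and the nucleic acid sensor Zbp1 (-0.38 ± 0.05). B cells express Tlr7 too, and their summed markers were lower in the combination (given above). The calls of Entpd5, Tlr7 and Zbp1 were lost without any array other than combination replicate 3.

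Among transcription factors, falls of FOX proteins stood beside a few small rises. Of 36 Krüppel-like, FOXO, Ikaros and ETS factors, 5 were called lower and 2 higher. Foxo1, which holds T cells in a resting and homing state, was at 7.86, 7.84 and 7.66 in the combination and 8.52, 8.28 and 8.26 in anti-CD27 (-0.57 ± 0.09, adjusted p = 0.0338). Foxp1, a further factor of quiescence, was at 6.43, 6.43 and 6.23 against 7.04, 6.76 and 6.84 (-0.52 ± 0.09), and Ikzf2, Helios, fell by 0.37 ± 0.05. Foxo3 and Foxn3 fell by 0.19 ± 0.03 and 0.18 ± 0.03, and Etv6 and Ikzf1 rose by 0.20 ± 0.03 and 0.17 ± 0.03. The calls of Foxo1 and Foxp1 were lost without any 1 of the 6 arrays (adjusted p up to 0.125), and no more than 1 fall of the list was called with any array left out. Rora, a nuclear receptor of the clock that also acts in lymphocytes, was the only one of 20 clock factors to pass, at 6.33, 6.51 and 6.23 against 5.68, 5.67 and 5.63 (0.70 ± 0.07, adjusted p = 0.0113, lost without any 1 anti-CD27 array or combination replicate 1). That is 5% of the clock list called higher, against 3.99% of all genes. Of 32 histone deacetylases, sirtuins and demethylases, 2 rose, Hdac2 by 0.46 ± 0.05 and Sirt1 by 0.15 ± 0.02, both lost without anti-CD27 replicate 1 or 2. Of 8 GIMAP GTPases of lymphocytes 1 fell, Gimap3 (-0.17 ± 0.03), a call that was lost without any 1 array. None of 23 p53 pathway genes passed with limma (3 were higher and 3 lower at an unadjusted p under 0.05), and the largest difference was -0.32 ± 0.11 in Sesn1 (adjusted p = 0.214). Of 21 caspases and their regulators 2 rose, both of the apoptosome, namely Cycs, cytochrome c (0.65 ± 0.08), and Apaf1 (0.26 ± 0.03), each lost without anti-CD27 replicate 1 or 2.

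Splicing factors gave rises and no falls, and 4 non-coding RNAs fell. Of 34 splicing factors 11 were called higher (32.4%) and none lower, and 31 differences were above 0, with a median of 0.17. Srsf2 was at 7.37, 7.41 and 7.34 in the combination and 6.68, 6.68 and 6.75 in anti-CD27 and was the only consistent one (0.67 ± 0.03, adjusted p = 0.00413). Srsf1 was at 8.16, 8.23 and 8.13 against 7.60, 7.59 and 7.64 (0.57 ± 0.03) and Hnrnpab at 9.32, 9.40 and 9.41 against 8.78, 8.78 and 8.84 (0.58 ± 0.03), and both held without any 1 array. Hnrnpa3, Hnrnpa2b1 and Ptbp1 rose by 0.36 ± 0.04, 0.33 ± 0.04 and 0.30 ± 0.05. The number called was 3 without anti-CD27 replicate 1 or combination replicate 1, 4 without replicate 2 of either group, 6 without anti-CD27 replicate 3 and 16 without combination replicate 3. Among 18 long non-coding and structural RNAs, 4 were called lower and none higher. Beside Malat1, Snhg5, a host of small nucleolar RNAs, was at 4.86, 4.86 and 4.76 against 5.15, 5.19 and 5.28 (-0.38 ± 0.05), and Rpph1, the RNA of ribonuclease P, and Rn7sk, which holds the elongation factor P-TEFb inactive, fell by 0.35 ± 0.05 and 0.14 ± 0.02. Neat1, a nuclear RNA encoded beside Malat1, had a difference of -0.07 ± 0.04 that did not pass (adjusted p = 0.499). The call of Rn7sk was lost after quantile normalization (adjusted p = 0.505), and those of Snhg5, Rpph1 and Rn7sk without replicate 1 or 2 of either group.

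**Figure D3:**
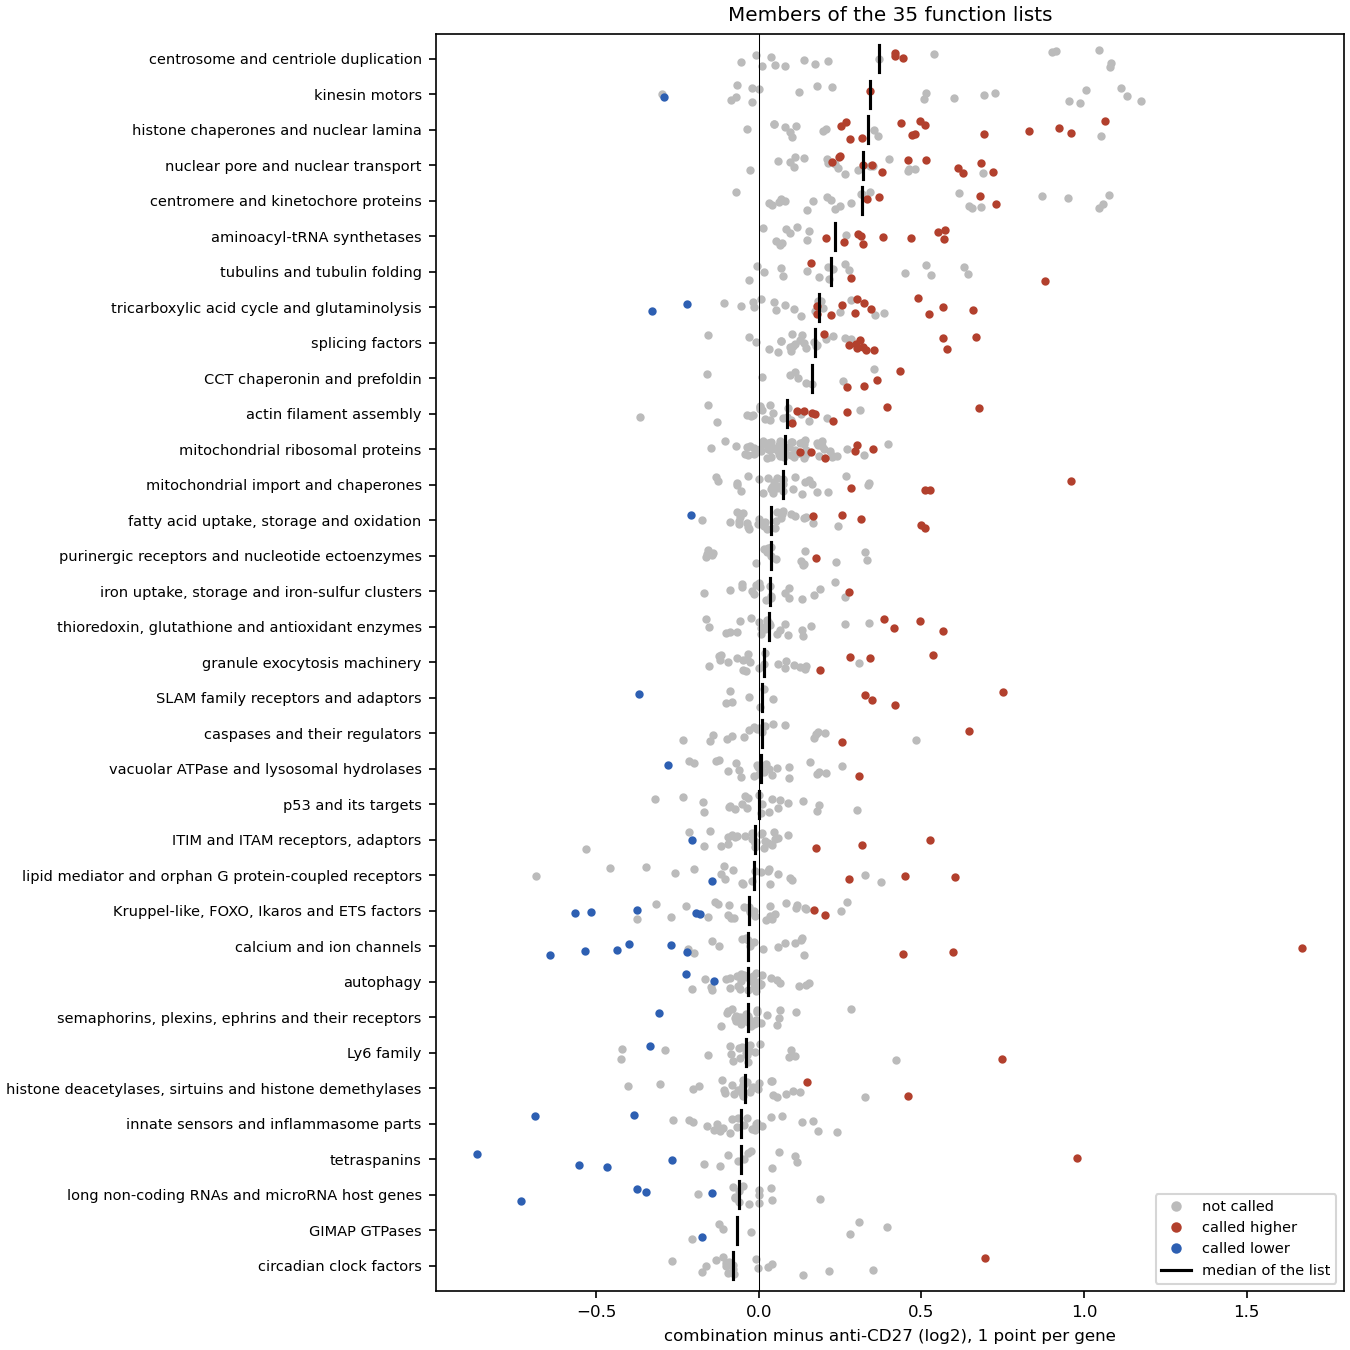
Combination minus anti-CD27 (log2) of every measured gene on the 35 function lists, ordered by the list median (black bar), with 1 point per gene. Points called higher are red and points called lower blue, and the lists with the most calls higher are those of histone chaperones and lamina (14 of 26), nuclear pores (12 of 31), the tricarboxylic acid cycle (12 of 32) and splicing (11 of 34).

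Among genes that charge transfer RNA with amino acids, many rose and none fell. Of 20 aminoacyl-tRNA synthetases and partners 10 were called higher (50%) and none lower, and all 20 differences were above 0 in the main fit, after median centring and after quantile normalization, with a median of 0.24. Rars, for arginine, was at 7.48, 7.42 and 7.53 in the combination and 6.89, 6.90 and 6.99 in anti-CD27 and was consistent (0.55 ± 0.04, adjusted p = 0.00621). Tars, for threonine, was at 7.50, 7.55 and 7.49 against 6.91, 6.95 and 6.95 (0.57 ± 0.03), and Gars, for glycine, at 8.75, 8.76 and 8.83 against 8.17, 8.20 and 8.27 (0.57 ± 0.04). Both held without any 1 array. Iars and Kars rose by 0.47 ± 0.06 and 0.38 ± 0.05. With 1 array left out, 4 (without anti-CD27 replicate 2) to 7 (without combination replicate 3) of the list were called.

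Mitochondrial genes rose in part. Of 32 genes of the tricarboxylic acid cycle and glutaminolysis, 12 were called higher (37.5%) and 2 lower, with a median of 0.19. Idh3a, of the NAD-dependent isocitrate dehydrogenase, was at 7.12, 7.17 and 7.23 in the combination and 6.54, 6.46 and 6.54 in anti-CD27 (0.66 ± 0.04, adjusted p = 0.00471) and held without any 1 array. Idh2, the NADP-dependent enzyme for the same substrate, moved the other way, at 5.85, 5.85 and 5.88 against 6.15, 6.22 and 6.19, a consistent fall (-0.33 ± 0.03, adjusted p = 0.00699). Me2, a malic enzyme, rose by 0.57 ± 0.06, Dld, a subunit shared by several dehydrogenases, by 0.53 ± 0.06, Suclg2 by 0.49 ± 0.06 and Mdh1 by 0.35 ± 0.05. Pdk1, a kinase that restrains entry of pyruvate to the cycle, fell by 0.22 ± 0.04, and its relative Pdk3 rose by 0.32 ± 0.04. The calls higher numbered 2 without anti-CD27 replicate 1 or 2, 3 without anti-CD27 replicate 3, 4 and 5 without combination replicate 1 or 2, and 15 without combination replicate 3, and 8 after quantile normalization.

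Of 75 mitochondrial ribosomal proteins, 65 had differences above 0 (63 after quantile normalization) but 6 were called higher, and the median was 0.08. Mrps18b was the consistent one, at 6.22, 6.15 and 6.15 against 5.87, 5.88 and 5.86 (0.30 ± 0.03, adjusted p = 0.0079), and Mrpl51 and Mrpl42 rose by 0.35 ± 0.04 and 0.30 ± 0.03. Of 36 genes of import and folding in mitochondria 4 rose (11.1%, against 3.99% of all genes). Timm8a1, a chaperone of the intermembrane space, rose by 0.96 ± 0.09, the chaperonin Hspd1 by 0.53 ± 0.04, Hspa9, mortalin, by 0.51 ± 0.03, and the processing peptidase Pmpca by 0.28 ± 0.03. Timm8a1 was at 6.67, 6.97 and 6.68 against 5.77, 5.84 and 5.83, and its call was lost without anti-CD27 replicate 1 or 2 (adjusted p up to 0.0531). Those of Hspd1 and Hspa9 held without any 1 array. Of 13 subunits of the CCT chaperonin and prefoldin, which fold actin and tubulin, 4 rose (30.8%, against 3.99% of all genes). Tcp1 rose by 0.43 ± 0.07, Cct8 by 0.36 ± 0.03, Cct3 by 0.32 ± 0.04 and Cct2 by 0.27 ± 0.04, and of these Cct8 held without any 1 array. With 1 array left out, the mitochondrial ribosome list gave 1 call without any anti-CD27 array, 3 and 2 without combination replicate 1 or 2, and 7 without combination replicate 3.

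In fatty acid use 5 of 34 genes rose and 1 fell (14.7% and 2.94%, against 3.99% and 1.39% of all genes). Acsl5, which activates long-chain fatty acids, was at 8.76, 8.74 and 8.70 in the combination and 8.23, 8.20 and 8.27 in anti-CD27 (0.50 ± 0.03, adjusted p = 0.00471) and held without any 1 array. Acadl, an acyl-CoA dehydrogenase, rose by 0.51 ± 0.06, Etfa, which takes up its electrons, by 0.32 ± 0.04, Hadha by 0.17 ± 0.02 and Plin2, a lipid droplet coat, by 0.26 ± 0.04, while the lysosomal lipase Lipa fell by 0.21 ± 0.04. Of 28 antioxidant genes 4 rose (14.3%, against 3.99% of all genes). Thioredoxin Txn1 rose by 0.50 ± 0.07, its reductase Txnrd1 by 0.38 ± 0.04, glutathione reductase Gsr by 0.57 ± 0.07 and haem oxygenase Hmox1 by 0.42 ± 0.06. Of 22 iron genes 1 rose (4.55%, against 3.99% of all genes), Ireb2, an iron-responsive regulator (0.28 ± 0.03). The transferrin receptor Tfrc differed by 0.23 ± 0.06 (adjusted p = 0.121). Of 34 autophagy genes none rose and 2 fell, Uvrag (-0.22 ± 0.02, its 3 combination values equal within 0.0001) and Gabarapl1 (-0.14 ± 0.03). Of 27 vacuolar ATPase subunits and lysosomal hydrolases 1 rose and 1 fell (3.7% each, against 3.99% and 1.39% of all genes). The rise was in Atp6v0a2 (0.31 ± 0.04) and the fall in Hexa (-0.28 ± 0.05). Except for Acsl5, each of these calls that was named was lost without anti-CD27 replicate 2.

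Further consistent genes, picked after their values were seen, belonged to none of the 35 lists. Folding enzymes of the endoplasmic reticulum rose, Hsp90b1 from 8.61, 8.58 and 8.61 to 9.28, 9.34 and 9.28 (0.70 ± 0.03, adjusted p = 0.00265) and the disulfide isomerases Pdia6 and P4hb by 0.81 ± 0.04 and 0.52 ± 0.05. The summed plasma cell markers, which share Xbp1 with this pathway, were higher in the combination too (given above), with Jchain at background, and their part was not tested. Stip1, which joins the HSP70 and HSP90 chaperones in the cytosol, was at 8.60, 8.59 and 8.59 against 7.96, 7.95 and 7.96 (0.63 ± 0.02). The drug exporters Abcb1a and Abcb1b rose by 0.45 ± 0.03 and 0.44 ± 0.03, the latter with equal anti-CD27 values. The deubiquitinases Uchl3 and Uchl5 rose by 0.62 ± 0.05 and 0.71 ± 0.04. Igf2r and Gnptab, which serve the mannose 6-phosphate route to lysosomes, rose by 0.64 ± 0.03 and 0.74 ± 0.06. Among falls, the ARF exchange factors Cyth1 and Cyth3 fell by 0.37 ± 0.02 and 0.37 ± 0.03, Pml, the organiser of nuclear bodies, by 0.33 ± 0.03, Camk2d, a calmodulin-dependent kinase, by 0.32 ± 0.03, and H2-T24, a class I gene of the T region, by 0.43 ± 0.03. The 3 combination values of Cyth1 and the 3 anti-CD27 values of Igf2r were equal within 0.0001.

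Adhesion and membrane-linked genes were a further part of the consistent rises, again picked after their values were seen. Itga4, an integrin chain that binds VCAM-1, was at 9.04, 9.25 and 9.08 in the combination and 8.20, 8.23 and 8.25 in anti-CD27 (0.90 ± 0.06, adjusted p = 0.00471). The adhesion receptor Alcam and the integrin chain Itgam rose by 0.59 ± 0.05 and 0.61 ± 0.04, and the annexin Anxa2 was at 9.06, 9.14 and 9.21 against 8.17, 8.11 and 8.17 (0.98 ± 0.04). Itgam is a marker of myeloid cells as well, whose summed markers were higher in the combination (given above), with Cd68 and C1qb higher without overlap and Csf1r at background, and their part in its rise was not tested. Tpm4, a tropomyosin on actin filaments, rose by 0.87 ± 0.06, the calcium-binding S100a6 by 0.61 ± 0.05, the galectin Lgals1 by 0.52 ± 0.03 and the LIM protein Crip1 by 0.52 ± 0.04. Pik3ap1, an adaptor to PI3 kinase, rose by 0.94 ± 0.06 and F2r, the thrombin receptor, by 0.36 ± 0.03. As in every called gene, the arrays of these genes did not overlap between the groups.

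Enzymes of biosynthesis and ribosome assembly made up another set of consistent rises picked in the same way. In nucleotide synthesis, Uck2, which salvages uridine, was at 8.02, 8.06 and 8.09 against 7.38, 7.46 and 7.46 (0.62 ± 0.03, adjusted p = 0.00416), and Ctps, which makes CTP, and Gart, of purine synthesis, rose by 0.53 ± 0.04 and 0.50 ± 0.05. Acaca, which commits acetyl-CoA to fatty acids, rose by 0.54 ± 0.03, the desaturase Fads1 by 0.43 ± 0.03, Pfkp, a phosphofructokinase of glycolysis, by 0.60 ± 0.04, and Cpox, of haem synthesis, by 0.73 ± 0.06. Factors that process ribosomal RNA and build the subunits rose by 0.30 to 0.55, with Heatr1 at 0.55 ± 0.03, Pno1 at 0.51 ± 0.05, Utp20 at 0.46 ± 0.03, Ltv1 at 0.40 ± 0.03 and Ftsj3 at 0.30 ± 0.02. Smc3, of the cohesin ring, rose by 0.56 ± 0.05 and Ipo5, an importin, by 0.59 ± 0.04.

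The targeted pathway was measured as RNA. Pdcd1, which encodes PD-1, was at 7.36, 7.47 and 7.44 in the combination and 7.11, 7.15 and 7.08 in anti-CD27 (0.31 ± 0.04, adjusted p = 0.016), and Cd274, which encodes PD-L1, at 6.47, 6.46 and 6.24 against 7.04, 7.03 and 7.02 (-0.64 ± 0.07, adjusted p = 0.0113). Both calls were lost without any 1 anti-CD27 array, and that of Pdcd1 also without combination replicate 2 (adjusted p up to 0.0715). The row that names Cd27 and Mir8113 was at 9.98, 10.10 and 9.88 against 9.88, 9.91 and 9.93, its arrays overlapped and it did not pass (adjusted p = 0.661 over all rows).

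Array rows that name several genes were tested in a fit over all 65956 transcript rows, of which 875 were called higher (1.33%) and 349 lower (0.529%). Of 1489 rows naming several genes, 32 were called higher (2.15%) and 6 lower (0.403%). Of the 32, 21 name a predicted gene or pseudogene, most of them beside a known gene. The signals of the genes that a row names cannot be told apart. The largest rise was of a row for Mcm7, a helicase subunit, with Mir25 and Mir93, which lie inside it, at 7.19, 7.08 and 7.60 in the combination and 6.45, 6.29 and 6.45 in anti-CD27 (0.89 ± 0.14, adjusted p = 0.0498), with combination replicate 3 the highest. A row for the nucleosome-binding Hmgn2 with Gm6750, Gm7931 and Gm9525 rose by 0.80 ± 0.09. Rows for the chaperone Hsp90aa1 with Gm12346 and with Gm5844 rose by 0.74 ± 0.06 and 0.74 ± 0.04, the latter from 8.72, 8.70 and 8.72 to 9.43, 9.42 and 9.52 (adjusted p = 0.00755). Pgam1, of glycolysis, with Pgam1-ps2 rose by 0.66 ± 0.07, prothymosin Ptma with Gm15466 by 0.61 ± 0.09, the RNA-binding Rbmxl1 with Gm7324 by 0.59 ± 0.06, and the receptor segments Trav12-2 and Trav12n-3 by 0.58 ± 0.09.

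The 6 falls among these rows were of other kinds. The row for the non-coding RNA Chaserr and its neighbour Chd2, a chromatin remodeller, was at 6.59, 6.59 and 6.44 in the combination and 7.10, 6.96 and 7.09 in anti-CD27 (-0.51 ± 0.06, adjusted p = 0.0269). The gamma receptor segments Trgc4, Trgj4 and Trgv1 fell by 0.48 ± 0.07, Tnrc6b, a partner of Argonaute in silencing by microRNAs, with Mir5113 by 0.42 ± 0.06, Ass1, which makes argininosuccinate, with Gm5424 by 0.35 ± 0.05, and the phosphatase Ctdsp2 with Mir26a-2 and Mir546 by 0.26 ± 0.04. The row for Scgb1b19, Scgb1b29 and Scgb1b7 was called (-0.23 ± 0.03) while below background in both groups. None of the 38 calls held in all 8 further fits. Without any 1 anti-CD27 array or combination replicate 1 or 2 limma made 0 calls in either direction (126 to 158 rows higher and 63 to 80 lower at an unadjusted p under 0.05), and without combination replicate 3 there were 17 higher and 3 lower.

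**Figure D4:**
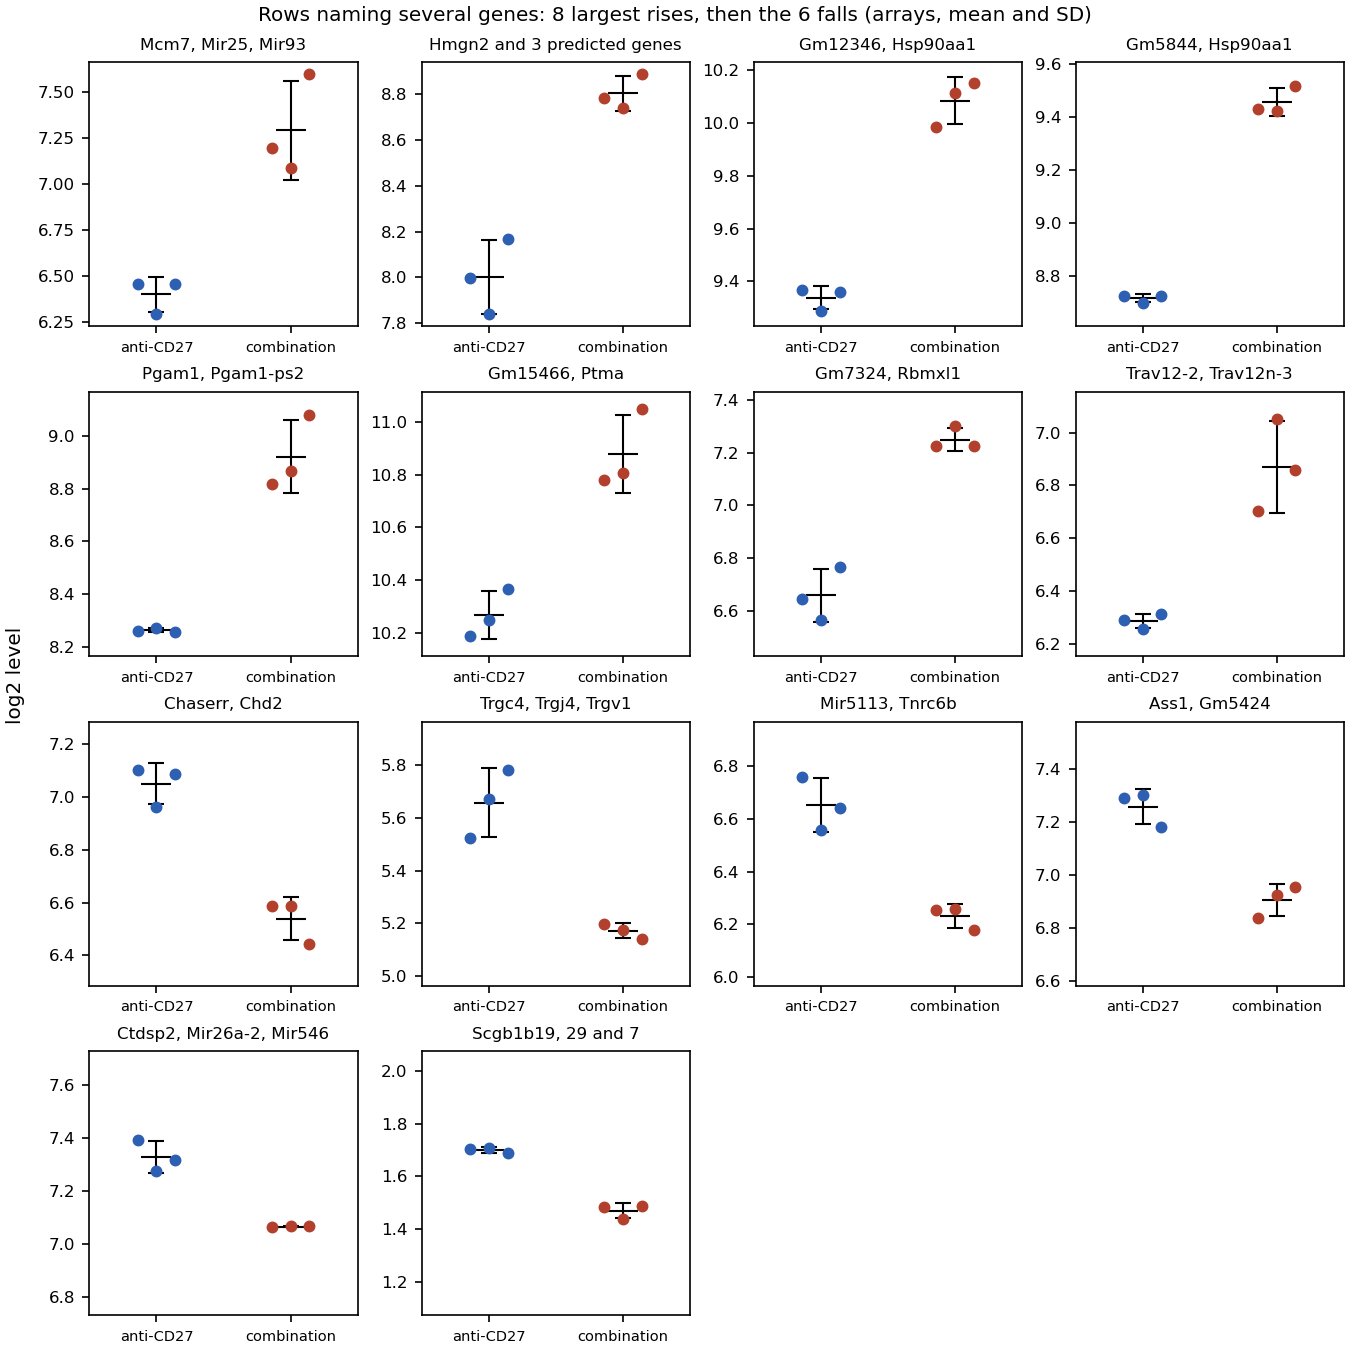
log2 level on each array for the 8 largest rises (top 2 rows) and the 6 falls (bottom 2 rows) among rows that name several genes, with group means and SD bars (n = 3 mice). The groups do not overlap in any of the 14 rows, as in every called row, and the Scgb1b row lies below the mean of the background controls.

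MicroRNA genes gave few calls. Of 918 measured, 14 were called lower (1.53%, close to the 1.39% of all genes) and 1 higher (0.109%, against 3.99%), and the latter, Mir804, was below background in both groups. Of the 14, Mir669e was called consistently and fell by 0.48 ± 0.04 from 10.00, 9.97 and 9.95 to 9.56, 9.44 and 9.47. Mir155, whose product is induced on T cell activation, was at 5.98, 5.97 and 5.72 in the combination and 6.42, 6.39 and 6.55 in anti-CD27 (-0.57 ± 0.09, adjusted p = 0.0267). Mir5123 was at 6.10, 6.19 and 5.57 against 7.42, 7.17 and 7.08 (-1.27 ± 0.19, adjusted p = 0.0257), Mir1931 fell by 0.83 ± 0.15 and Mir7015 by 0.61 ± 0.11. For these 4 genes the calls were lost without any 1 anti-CD27 array or combination replicate 1 or 2, and for the first 3 combination replicate 3 was the lowest array. The arrays were hybridised with total RNA, and the sources used here do not say whether a row reads the precursor or the mature form. For Mir155, Mir5123 and Mir1931, and for Mir25, Mir93 and Mir26a-2 of the rows above, 1 mature form each is printed from RefSeq on GRCm38.p6, with the seed (bases 2 to 8) in capitals, to show which seeds go with the rows that moved. No 2 of the 6 share a seed.

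mmu-miR-25-3p: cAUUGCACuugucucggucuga
mmu-miR-93-5p: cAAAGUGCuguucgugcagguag
mmu-miR-26a-5p: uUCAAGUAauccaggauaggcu
mmu-miR-155-5p: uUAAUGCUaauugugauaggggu
mmu-miR-5123: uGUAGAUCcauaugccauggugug
mmu-miR-1931: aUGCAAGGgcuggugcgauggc

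**Figure D5:**
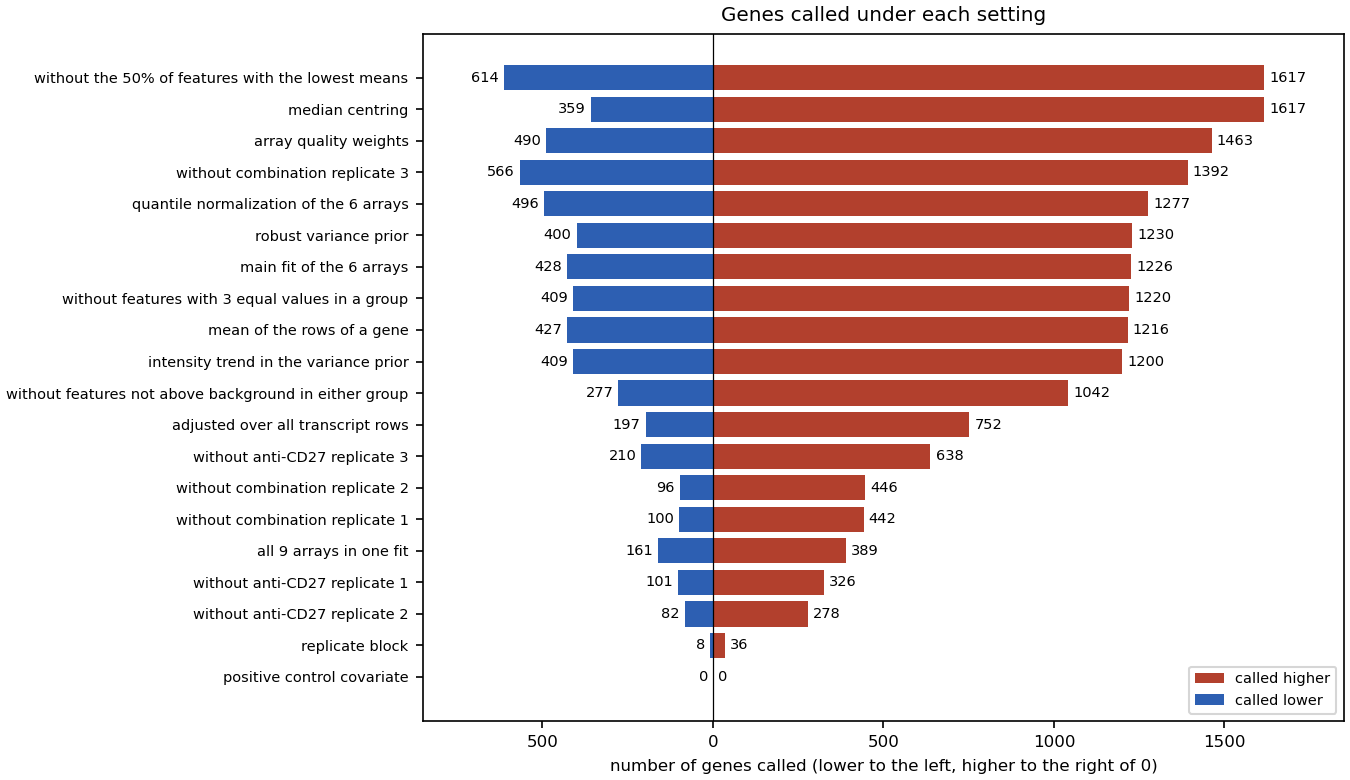
Number of genes called higher (to the right) and lower (to the left) in the main fit of the 6 arrays, at 1226 and 428, and under each other setting. The counts range from 0 with the mean of the positive control rows as a covariate to 1617 higher after median centring or without the lowest-level genes, and the filter on background keeps the 3559 genes above the 95th percentile of the background control rows.

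The counts of calls by setting show where the comparison is thin. Leaving out any 1 array other than combination replicate 3 cut the calls to between 278 and 638 higher and between 82 and 210 lower. With the mean of the positive control rows as a covariate, limma called 0 genes, with 2700 higher and 1791 lower at an unadjusted p under 0.05. In that fit all 124 consistent rises and all 34 consistent falls kept their direction, with median differences of 0.64 and -0.59.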

How the data were processed

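RNA of sorted donor CD8+ T cells was measured on mouse transcriptome arrays, 1 mouse per array. The deposited values are on a log2 scale and were used as given, and the submitters' processing notes name RMA and oligo 1.38.0 as the authors' tools. The sources used here do not give a genome build. Of 72688 rows, 6732 are controls and 65956 transcripts, of which 31261 name 1 gene, 1489 several and 33206 none in the platform annotation. For 441 genes with over 1 row, the row with the highest mean was kept, which left 30705 genes.

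The 6 arrays were fitted alone with limma 3.58.1 in R 4.3.3 (lmFit and eBayes), with Benjamini-Hochberg adjustment over all genes and a threshold of 0.05. A second fit took all transcript rows. The code was tested on simulated data. Replicates are separate mice per the labels, and 3 arrays a group limit the precision.

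The genes and lists were chosen with earlier results of these data known. The text names the 14 largest consistent rises and falls, leaving out predicted genes, microRNAs, receptor segments and genes already known from those results, up to 4 called members per list, 8 rows that name several genes and 4 microRNA genes per direction, and Cd8a, Cd8b1, Thy1, Pdcd1, Cd274, Cd27 and Cd3e. Other genes given with values were picked after their values were seen. Background was to be the 95th percentile of the background control rows, which fell at 6.83 in the combination and 6.94 in anti-CD27. After this was seen, their mean (3.25 and 3.27) was used in its place. Within a group, the 3 values of 4014 genes (13.1%) are equal within 0.0001, and 184 called genes are among them. Promoters and microRNAs were matched to RefSeq (GRCm38.p6) by symbol, with 21 of 25 microRNA genes matched. Of the gene lists, 1 is not reported here. Alternatives were leave-one-out fits, other normalizations, filters and variance estimates, a replicate block, the third treatment group in the fit, and a positive control covariate.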

Additional observations from a re-analysis of the deposited data

Results flagged for a closer look

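The 33206 transcript rows that name no gene enter the fit over all transcript rows and its counts above, but were not looked at by themselves. Among them limma called 85 higher (0.256%) and 145 lower (0.437%) in the combination over all transcript rows. For rows of all kinds the shares were 1.33% and 0.529%.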

How the results depend on the processing

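Without 1 array, the genes called numbered 278 to 1392 higher and 82 to 566 lower (1226 and 428 with all 6). By left-out array the counts were 326 and 101 (anti-CD27 replicate 1), 278 and 82 (replicate 2), 638 and 210 (replicate 3), 442 and 100 (combination replicate 1), 446 and 96 (replicate 2), and 1392 and 566 (replicate 3). With all 9 arrays in 1 fit they were 389 and 161, with p-values adjusted over all transcript rows 752 and 197, and among the 3559 genes above the 95th percentile of the background control rows in either group (6.83 and 6.94, not the mean used in the text) 1042 and 277. With the positive control covariate, chosen after seeing the data, limma called 0 and 0 (2700 and 1791 at an unadjusted p under 0.05). The replicate block gave 36 and 8 genes. Same-numbered arrays had deviations correlated at -0.086 to -0.055, and differently numbered arrays at 0.001 to 0.07. With 3 arrays a group, these correlations cannot settle whether the numbers pair the mice. Counts stayed within 1.5 times under quantile normalization (1277 and 496), median centring (1617 and 359), without the lowest-level genes (1617 and 614), array weights (1463 and 490), a trend (1200 and 409) or robust prior (1230 and 400), the mean of a gene's rows (1216 and 427), and, chosen after seeing the data, without genes with 3 equal values (1220 and 409). Rows naming several genes (32 and 6) gave 0 to 17 and 0 to 3 without 1 array, 6 and 3 with 9 arrays, 14 lower under quantile normalization, 11 lower with array weights, 49 and 13 without the lowest-level rows, 61 and 22 among the 229 rows above that percentile, and 0 and 0 with the replicate block or the covariate (128 and 60, and 95 and 85, at an unadjusted p under 0.05). Consistent calls (124 and 34) were 222 and 44 without the 9-array fit among the criteria, and 26 and 5 with the replicate block added. The cause was not tested, apart from the smaller number of genes or samples where named. None of the 147 genes named by the rule turned its direction in the settings that tested it (134 without equal values, 145 without the lowest-level genes, 70 above the percentile). The rule drew on the values of these same arrays, so that this adds no support to the calls. The 3 arrays a group and signals near background limit what can be called.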
